A study of Mus musculus with 11 samples.

Results

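The genes described here encode the constant regions of the mouse antibody chains and the joining chain of polymeric antibodies. There were 10 of them among 54232 gene rows, namely Ighm, Ighd, Ighg1, Ighg2b, Ighg2c, Ighg3, Igha and Ighe for the heavy chains, Igkc for the kappa light chain, and Jchain. They were picked by name in the gene annotation, as the antibody constant region genes and Jchain. No value of theirs entered the rule, but earlier results of these data were known when they were chosen. RNA was sequenced in bulk from 11 orthotopic pancreatic tumors, 6 from hosts labeled PKN2 KO (replicates A to F) and 5 from hosts labeled PKN2 WT (replicates A to E). Every host was a female C57BL/6 mouse that carried the tamoxifen-inducible Rosa26-CreERT2 recombinase and received tamoxifen before an injection of 1000 TB32048 cells into the pancreas. The KO hosts had both Pkn2 alleles floxed and the WT hosts had neither. The hosts were adult littermates matched for age. TB32048 is a pancreatic carcinoma line from a female KPC mouse with its own Pkn2 intact, and all tumors came from this 1 line. Because Rosa26 drives the recombinase in all cell types, the deletion was not restricted to stromal fibroblasts, and lymphocytes of the KO hosts carried the same inducible alleles.

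A B cell first joins its rearranged heavy chain variable region to Ighm and, by alternative splicing, to Ighd, and displays IgM and IgD as antigen receptors. After stimulation, class switch recombination can replace Ighm with one of the constant genes that follow it on the chromosome, giving IgG, IgE or IgA with the same variable region. Plasma cells secrete these antibodies in bulk and are far richer in constant region mRNA than resting B cells. The J chain is made by antibody-secreting cells and links the units of pentameric IgM and dimeric IgA, which the polymeric immunoglobulin receptor can then carry across epithelia.

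The heavy chain genes lie on the minus strand of chromosome 12 (GRCm38) in the order in which a switching cell meets them. Ighm (chr12:113418558-113422730) and Ighd (chr12:113406604-113416324) come first. They are followed by Ighg3 (chr12:113356224-113361232), Ighg1 (chr12:113325240-113330523), Ighg2b (chr12:113302965-113307933) and Ighg2c (chr12:113285325-113288932). Ighe (chr12:113269260-113273248) and Igha (chr12:113254830-113260236) come last. Igkc is on the plus strand of chromosome 6 (chr6:70726435-70726966), inside an intron of the long noncoding RNA gene Gm30211, and Jchain is on the minus strand of chromosome 5 (chr5:88519809-88527891).

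The link between the J chain and its partners can be read from the last codons of the secreted forms, shown here for Ighm and Igha with Ighg1 for contrast. Each line gives the last 57 bases of the coding sequence, 5′ to 3′ on the coding strand, from the GENCODE M21 transcript, with the stop codon included and the second-last amino acid codon in capitals.
Ighm (chr12:113420867-113420923, minus strand): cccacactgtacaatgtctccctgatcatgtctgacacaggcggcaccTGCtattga
Igha (chr12:113258768-113258824, minus strand): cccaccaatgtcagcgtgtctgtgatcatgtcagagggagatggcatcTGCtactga
Ighg1 (chr12:113328976-113329032, minus strand): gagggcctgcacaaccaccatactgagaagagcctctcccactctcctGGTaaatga
In Ighm and Igha the capitals are a cysteine codon followed by a tyrosine codon and the stop, which is the end of the secretory tailpiece through which these chains polymerize and bind the J chain. Ighg1 has no such cysteine there.

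The IgG genes resemble each other closely enough that their reads have to be told apart, so the first 60 bases of their annotated constant regions follow, with bases unlike Ighg1 at the same place in capitals.
Ighg1 (chr12:113330464-113330523, minus strand): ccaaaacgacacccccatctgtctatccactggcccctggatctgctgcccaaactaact
Ighg2b (chr12:113307874-113307933, minus strand): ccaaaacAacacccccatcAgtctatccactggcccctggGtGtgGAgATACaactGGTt
Ighg2c (chr12:113288873-113288932, minus strand): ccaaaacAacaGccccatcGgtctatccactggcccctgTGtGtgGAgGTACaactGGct
Ighg3 (chr12:113361173-113361232, minus strand): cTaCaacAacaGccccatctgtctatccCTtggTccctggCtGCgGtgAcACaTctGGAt
Ighg2b differed from Ighg1 at 13 of these bases, Ighg2c at 14 and Ighg3 at 18. Over the whole exonic sequence, 0.393% of the 50-base windows of Ighg1, 4.15% of those of Ighg2b, 5.49% of those of Ighg2c and 1.58% of those of Ighg3 also occurred in another of these genes. No window of 100 bases was shared, and the other 6 genes shared no window of 50 bases. The split between the IgG genes, Ighg2b and Ighg2c above all, therefore carries a small uncertainty that the counts cannot show. A count covers a whole gene, so the secreted and membrane forms of a heavy chain were not separated.

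Total counts per tumor ran from 16294128 to 31121422, and 3 counts corresponded to 0.0887 to 0.250 CPM, the unit in which each count is scaled to a fixed library total. Pkn2 itself, which the injected carcinoma cells also express, was at 80.1 to 108 CPM in KO and 62.9 to 138 CPM in WT tumors, so that its count over the whole gene did not check the labels. Ribosomal RNA took 0.308% to 0.739% of the counts in KO tumors, and 1.31%, 6.39%, 1.40%, 0.765% and 0.241% in WT replicates A to E. Nothing in the labels says more of the replicates than that they are separate tumors. Levels below are in CPM after scaling by the trimmed mean of M values (TMM), and fold changes are log2, KO minus WT, from edgeR's quasi-likelihood test over 16536 genes.

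All 10 genes had a higher mean in KO tumors, most of them by several-fold, but with a wide spread among KO hosts. All 9 genes that passed the filter on low counts (all except Ighe) had a positive log2 fold change, with a median of 2.90 against -0.03 over all tested genes. None of the 9 passed an edgeR adjusted p under 0.05, a level that 0.0181% of all tested genes reached in the direction of KO. An unadjusted p under 0.05 was reached by 8 of the 9, the exception being Igha, against 8.57% of all tested genes higher in KO. The adjusted p ran from 0.0663 to 0.605. DESeq2 on the same counts called 6 of the 9 (Ighm, Ighd, Ighg1, Ighg2b, Ighg3 and Igkc), against 3.42% of all tested genes. In a bulk sample, fewer cells of a type and less RNA per cell cannot be told apart.

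**Figure D1:**
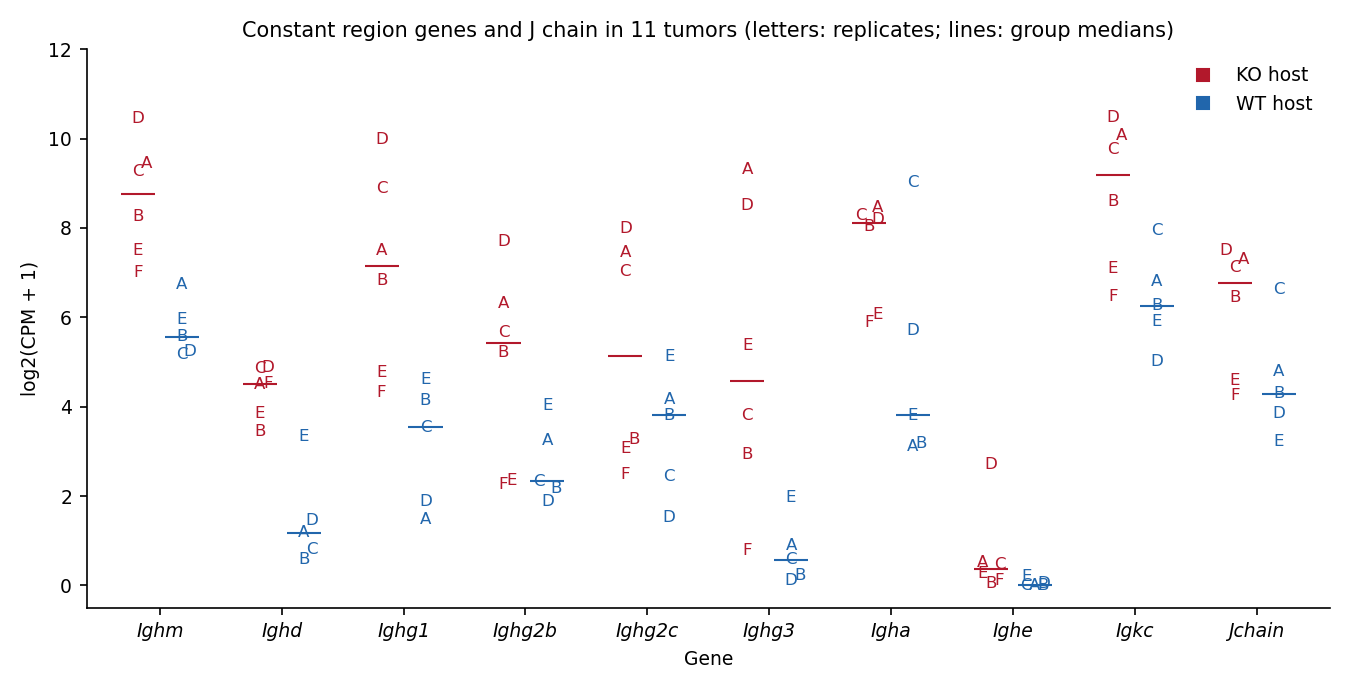
Level of each gene in every tumor as log2(CPM + 1), with letters for replicates, red for KO and blue for WT hosts, and lines at group medians. All KO letters lie above all WT letters only for Ighm and Ighd, WT replicate C is the highest of all 11 tumors for Igha, and KO replicates E and F are the lowest KO tumors for Ighm, Ighg1, Ighg2b, Ighg2c, Igha, Igkc and Jchain.

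Ighm and Ighd, the isotypes of naive B cells, were the only 2 of the 9 genes whose groups did not overlap, against 1.59% of all tested genes. Ighm, the constant region of IgM, was at 128 CPM in the lowest, a median of 460.4 CPM and 1396 CPM in the highest of the 6 KO tumors. In WT replicates A to E it was at 106, 46.3, 35.0, 36.5 and 61.1 CPM. Every KO tumor was thus above every WT tumor, although KO replicate F, the lowest, stood only slightly above WT replicate A. The log2 fold change of Ighm was 3.28 (SE 0.61, edgeR adjusted p = 0.0663). Ighd, which mature naive B cells express together with Ighm, was much more even in KO tumors, at 9.94 CPM in the lowest, a median of 21.7 CPM and 28.3 CPM in the highest. The WT values of Ighd were 1.26, 0.501, 0.737, 1.72 and 9.13 CPM for replicates A to E. WT replicate E was just below the lowest KO tumor, and the other 4 WT tumors were near 1 CPM. The log2 fold change of Ighd was 2.90 (SE 0.67, edgeR adjusted p = 0.0796), and without WT replicate E it was 4.24 (edgeR adjusted p = 0.00663).

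The 4 IgG genes, made after class switching, had higher means in KO tumors but overlapped between the groups. Ighg1, the IgG subclass that interleukin 4 favors, was at 18.9 CPM in the lowest, a median of 145 CPM and 1007 CPM in the highest KO tumor. In WT tumors Ighg1 was at 1.78, 16.6, 10.7, 2.66 and 23.3 CPM. All KO tumors except replicate F were above the WT range, and the log2 fold change was 4.78 (SE 1.11, edgeR adjusted p = 0.0816). Ighg3, a subclass common in T cell-independent responses, varied most, from 0.725 CPM in KO replicate F through a median of 26.6 CPM to 638 CPM in KO replicate A. Its WT values were 0.868, 0.167, 0.491, 0.0783 and 2.90 CPM, of which those of replicates B and D stood for 2 counts each. KO replicates A and D, at 638 and 359 CPM, made up most of the KO sum, and the log2 fold change was 7.48 (SE 1.72, edgeR adjusted p = 0.0796).

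Ighg2b and Ighg2c, the constant regions of IgG2b and IgG2c, separated the groups less. Ighg2b reached 3.79 CPM in the lowest, a median of 42.7 CPM and 207 CPM in the highest KO tumor, beside 8.42, 3.50, 4.03, 2.70 and 15.4 CPM in WT replicates A to E. KO replicates A to D were above the WT range, whereas E and F were inside it, and the log2 fold change was 3.20 (SE 0.94, edgeR adjusted p = 0.0991). Ighg2c, the subclass that C57BL/6 mice carry in place of IgG2a and that interferon gamma favors, was at 4.59 CPM in the lowest, a median of 68.7 CPM and 253 CPM in the highest KO tumor. The WT values of Ighg2c were 16.9, 13.0, 4.42, 1.88 and 33.7 CPM. Only KO replicates A, C and D exceeded WT replicate E, and the log2 fold change was 2.77 (SE 1.08, edgeR adjusted p = 0.151).

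Igha, the isotype of mucosal surfaces, gave the smallest difference of the 9 genes, and 1 WT tumor decided its size. It was at 58.5 CPM in the lowest, a median of 276 CPM and 350.1 CPM in the highest KO tumor. In WT replicates A, B, D and E it was at 7.64, 8.01, 51.5 and 13.0 CPM, but in WT replicate C it was at 518 CPM, above every other tumor. The log2 fold change of Igha was 0.90 (SE 1.01, edgeR adjusted p = 0.605) with all tumors and 3.47 (edgeR adjusted p = 0.0893) without WT replicate C, where the 6 KO tumors were all above the 4 WT tumors left. Ighe, the IgE constant region, was close to the limit of detection and was left out of the test. It had 12, 1, 11, 137, 5 and 2 counts in KO replicates A to F and 0, 0, 0, 1 and 5 counts in WT replicates A to E. KO replicate D alone held most of them, at 5.57 CPM.

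Igkc, which most mouse antibodies use as their light chain, also had a higher mean in KO tumors. It was at 87.8 CPM in the lowest, a median of 627 CPM and 1412 CPM in the highest KO tumor. The WT values were 110.5, 75.8, 245, 31.4 and 59.0 CPM for replicates A to E. KO replicates A to D were above the WT range, and E and F lay below WT replicate C. The log2 fold change of Igkc was 2.66 (SE 0.74, edgeR adjusted p = 0.0932). Jchain was at 18.0 CPM in the lowest, a median of 112 CPM and 179 CPM in the highest KO tumor, and at 26.8, 18.5, 97.8, 13.5 and 8.39 CPM in WT replicates A to E. Only KO replicates A, C and D were above WT replicate C, the tumor with the high Igha. The log2 fold change of Jchain was 1.60 (SE 0.72, edgeR adjusted p = 0.195), and 2.58 (edgeR adjusted p = 0.0977) without WT replicate C.

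**Figure D2:**
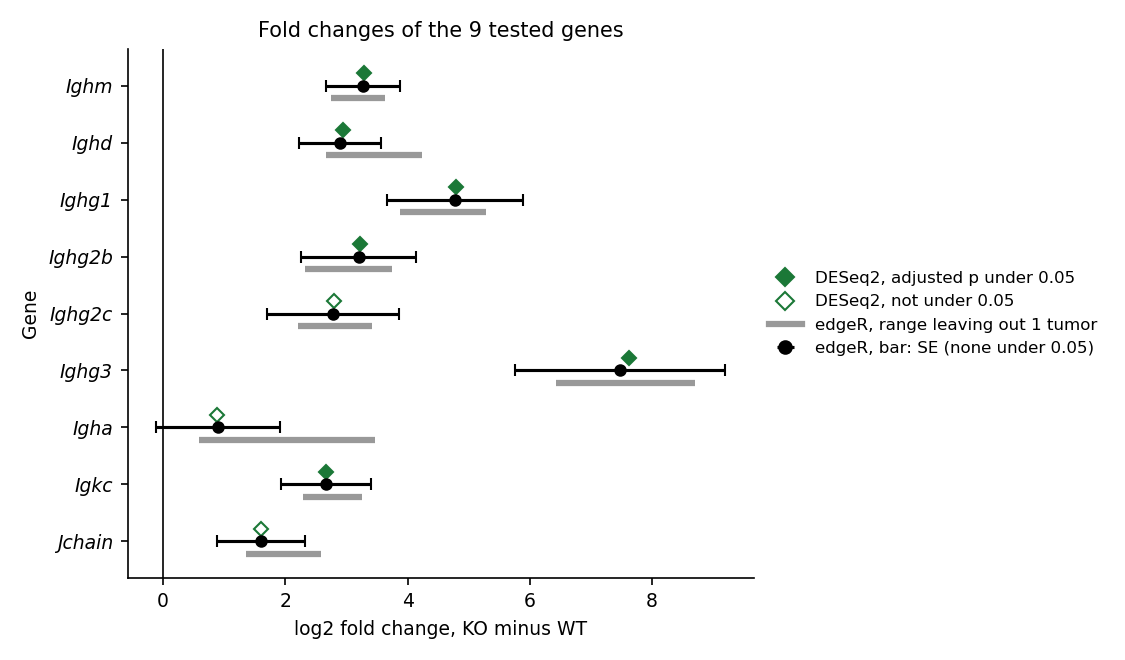
log2 fold change, KO minus WT, of the 9 tested genes by edgeR (black, bars show SE) and DESeq2 (diamonds, filled where its adjusted p was under 0.05), with the range over edgeR fits that each left out 1 tumor (gray). All estimates are above 0, from 0.90 for Igha to 7.48 for Ighg3 by edgeR, and the gray range is widest for Igha.

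The number of these genes past the edgeR threshold depended on single tumors. Without WT replicate E, 5 of the 9 passed (Ighm, Ighd, Ighg1, Ighg2b and Ighg3), without WT replicate D 2 (Ighm and Ighg3) and without KO replicate F 1 (Ighm). In the same fits, 608 of 16731, 203 of 16830 and 30 of 16386 tested genes passed in the direction of KO. Leaving out any of the other 8 tumors left 0 of the 9 past the threshold. KO replicate D and WT replicate E moved the differences of Ighg1, Ighg2b and Ighg2c most. Without KO replicate D the log2 fold change was 3.87 for Ighg1, 2.33 for Ighg2b and 2.20 for Ighg2c, and without WT replicate E it was 5.28, 3.75 and 3.42. That of Ighg3 was 6.42 without KO replicate A and 8.71 without WT replicate E. Igkc was at 3.26 without WT replicate C. With the 3 WT tumors of highest ribosomal RNA share (A, B and C) left out, again 0 passed, and Ighm was at a log2 fold change of 3.50 (edgeR adjusted p = 0.148) and Ighd at 1.92 (edgeR adjusted p = 0.184). Adjusting instead for the share of ribosomal RNA left Ighm at 3.26 and Igha at 0.22.

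Per kilobase of exon, Igkc was the most abundant of the 10 genes in both groups, with a median of 1178 CPM per kb in KO and 143 CPM per kb in WT tumors. Ighm followed at medians of 244 and 24.6 CPM per kb. In KO tumors Igha (103 CPM per kb), Ighg1 (56.1), Ighg2c (51.8), Jchain (44.3), Ighg2b (15.95), Ighd (11.4), Ighg3 (10.6) and Ighe (0.185) came next by median. Neighbors in this order overlapped widely across tumors. Ighm, for example, ranged from 67.8 to 740 CPM per kb, and Igha from 21.9 to 131 CPM per kb. In WT tumors the medians of Ighg2c, Jchain, Igha and Ighg1 lay between 4.11 and 9.82 CPM per kb, and those of Ighg2b, Ighd, Ighg3 and Ighe at 1.505, 0.662, 0.196 and 0. Ranking by the shortest annotated transcript instead moved Jchain above Ighg2c in both groups.

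The shares of the 8 heavy chain genes in their summed counts describe the isotype mix whatever its amount. The sum was 5865 to 87275 counts in KO and 1056 to 11668 counts in WT tumors. Ighm held the largest share of raw counts in all 6 KO tumors, at 32.4%, 41.3%, 38.2%, 39.3%, 53.3% and 54.1% in replicates A to F. In WT tumors its share was 74.2%, 52.6%, 6.11%, 37.6% and 38.5% in replicates A to E. WT replicates B, D and E thus lay within the KO range, WT replicate A above it and WT replicate C below it. The mean share of Ighm was 43.1% ± 8.73 (SD, n = 6) in KO and 41.8% ± 24.8 (SD, n = 5) in WT tumors (exact permutation test, two-sided, p = 0.883). These shares are not corrected for length. The shortest annotated transcript of Ighm has 1493 bases, against 1076 for Ighg1, 1082 for Ighg3 and 1100 for Igha. Which isotype leads a tumor therefore depends on the length used. Per base of these shortest transcripts Ighm would lead only in KO replicates E and F among the KO tumors. Ighg3 would lead in KO replicate A, Igha in B and Ighg1 in C and, by a narrow margin, in D. Per exonic length Ighm led in every KO tumor.

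What came second to Ighm differed from tumor to tumor. In KO replicate A it was Ighg3, with 29.9%, in B Igha with 35.2%, in C and D Ighg1 with 29.0% and 28.4%, and in E and F Igha with 19.5% and 24.8%. In WT replicates A and E it was Ighg2c, with 11.8% and 21.2%, and in WT replicate B Ighg1 with 18.8%. Igha led in the remaining 2 WT tumors. Its share was 90.3% in WT replicate C (95% Wilson interval 89.8 to 90.9) and 53.0% in WT replicate D (51.1 to 55.0), whereas it was 5.36%, 9.09% and 8.19% in WT replicates A, B and E. Intervals of this kind cover counting error only. In KO tumors the Igha share ran from 8.23% through a median of 19.3% to 35.2%.

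**Figure D3:**
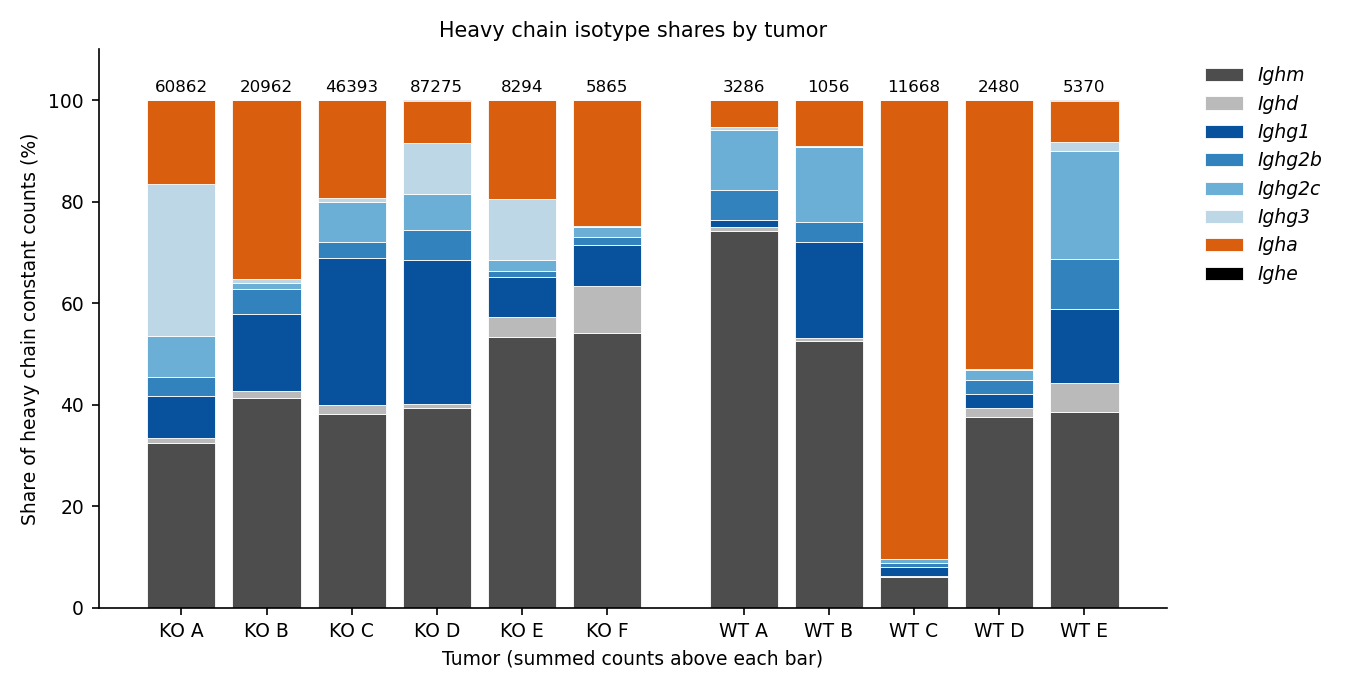
Share of each of the 8 heavy chain constant genes in their summed raw counts, in percent, for every tumor, with the sum above each bar. Ighm (dark gray) is the largest share in all 6 KO tumors and in WT replicates A, B and E, and Igha (orange) takes 90.3% and 53.0% of the bars of WT replicates C and D, where it leads.

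None of the 8 isotype shares passed the threshold of 0.05 between the groups. The smallest p was that of Ighg3, with a mean share of 9.01% ± 11.5 (SD, n = 6) in KO and 0.558% ± 0.741 (SD, n = 5) in WT tumors (exact permutation test, two-sided, p = 0.0952). Without WT replicate E the difference in the Ighg3 share was 8.77 percentage points (exact permutation p = 0.0190). Leaving out any other single tumor kept p between 0.0556 and 0.175 (exact). Without KO replicate A the difference was 4.26 points (exact permutation p = 0.175). Ighg1 took 16.1% ± 10.1 in KO and 7.88% ± 8.27 in WT tumors (exact permutation p = 0.182). Ighg2c took 4.76% ± 3.32 and 10.1% ± 8.70 (exact permutation p = 0.203), Ighg2b 3.38% ± 1.80 and 4.61% ± 3.41 (exact permutation p = 0.489), and Igha 20.5% ± 8.99 and 33.2% ± 37.5 (exact permutation p = 0.498). Ighd took 3.02% ± 3.26 and 1.82% ± 2.28 (exact permutation p = 0.576), with its largest shares in KO replicate F (9.26%) and WT replicate E (5.75%), the tumors with the fewest Ighm counts per Ighd count (5.85 and 6.69). Ighe stayed under 0.2% of the heavy chain counts in every tumor (exact permutation p = 0.506), and its 0 counts in WT replicates A, B and C allow shares of up to 0.0913%, 0.284% and 0.0257%. All switched isotypes together took 36.6% to 66.6% of the heavy chain counts in KO tumors and 25.0% to 93.8% in WT tumors.

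Light chain use was compared as the share of Igkc in the counts of Igkc and the 3 lambda constant genes Iglc1, Iglc2 and Iglc3. The kappa share was 97.7%, 96.2%, 96.9%, 98.3%, 96.2% and 91.9% in KO replicates A to F. In WT replicates A to E it was 96.6%, 87.4%, 79.6%, 87.4% and 94.5%. WT replicates B, C and D were below every KO tumor, and WT replicates A and E lay within the KO range. The mean was 96.2% ± 2.25 (SD, n = 6) in KO and 89.1% ± 6.75 (SD, n = 5) in WT tumors, a difference of 7.11 percentage points (exact permutation test, two-sided, p = 0.0433). It was the only 1 of the 10 exact tests of shares and ratios under 0.05, unadjusted, and leaving out any of 8 of the tumors took p to between 0.0635 and 0.0952 (exact). Leaving out WT replicates A, B and C together gave a difference of 5.27 points (exact permutation p = 0.143).

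Iglc1 made the low kappa share of those tumors. It took 19.9% of the light chain counts in WT replicate C, 9.80% in D and 8.56% in B, and 0.663% to 1.71% in the other 8 tumors. In CPM, Iglc1 was at 61.2 in WT replicate C against 12.4 in the highest KO tumor, and its log2 fold change was -1.30 (edgeR adjusted p = 0.418) with all tumors and 0.90 without that tumor. Iglc2 and Iglc3, whose sequences share more (7.65% and 10.7% of their 50-base windows), had log2 fold changes of 2.59 (edgeR adjusted p = 0.0663) and 2.23 (edgeR adjusted p = 0.0816).

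**Figure D4:**
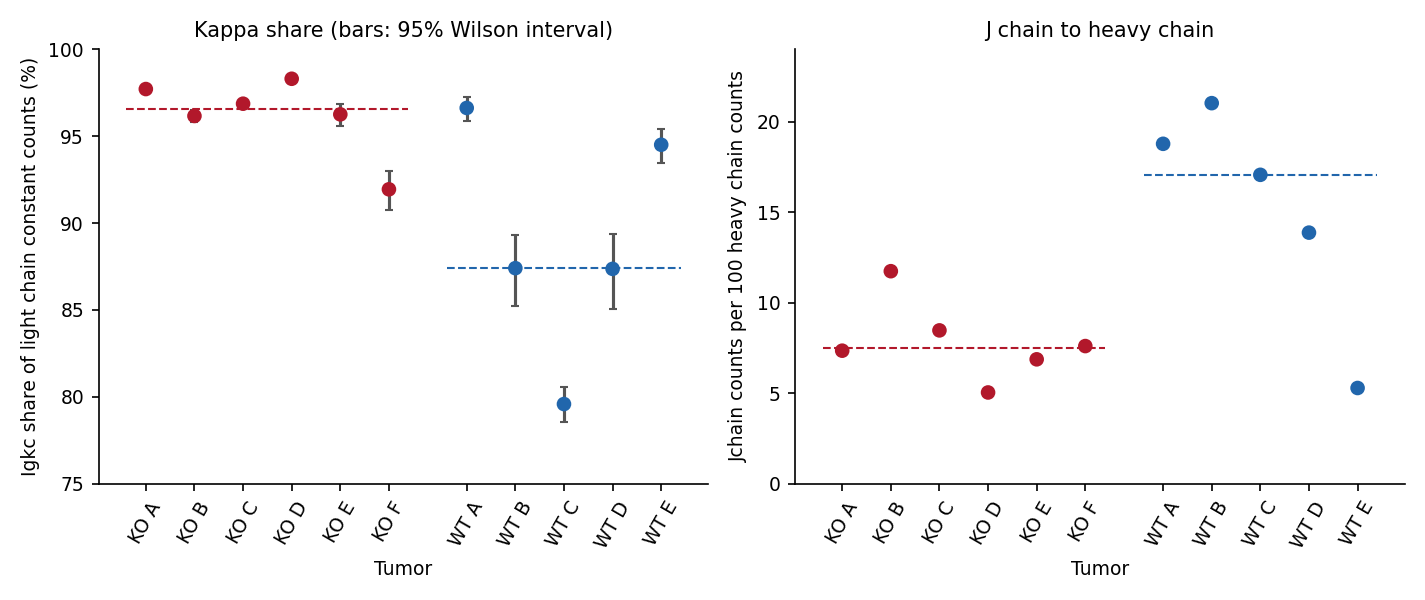
Left, share of Igkc in light chain constant counts by tumor, in percent on an axis from 75, with 95% Wilson intervals. Right, Jchain counts per 100 heavy chain counts by tumor. Dashed lines are group medians. WT replicates B, C and D have the lowest kappa shares, and WT replicates A to D have more Jchain per heavy chain than any KO tumor.

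Relative to the heavy chains, Jchain was lower in most KO tumors. Per 100 heavy chain counts there were 7.35, 11.7, 8.47, 5.04, 6.87 and 7.60 Jchain counts in KO replicates A to F, and 18.8, 21.02, 17.1, 13.9 and 5.29 in WT replicates A to E. WT replicates A to D were above all KO tumors, and WT replicate E was close to the lowest of them. The mean log2 ratio was -3.72 ± 0.40 (SD, n = 6) in KO and -2.86 ± 0.80 (SD, n = 5) in WT tumors (exact permutation test, two-sided, p = 0.0519). Leaving out WT replicate E widened the difference from -0.86 to -1.20 (exact permutation p = 0.00952, the smallest p that 6 against 4 tumors allow), and leaving out KO replicate B also took p under the threshold (0.0397, exact). Leaving out any other single tumor kept p between 0.0635 and 0.114 (exact). Without WT replicates A, B and C, the WT tumors of highest ribosomal RNA share, the difference was -0.17 (exact permutation p = 0.714).

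The variable segments joined to these constant regions gave a second reading of the same transcripts. Summed Ighv counts per heavy chain constant count were 0.123 to 0.173 in KO tumors and 0.0846, 0.0710, 0.00960, 0.105 and 0.182 in WT replicates A to E. WT replicate C, the tumor dominated by Igha, thus had 112 Ighv counts beside 11668 constant counts, and likewise 317 Igkv counts beside 4994 Igkc counts.

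B cell markers differed in the same direction as the constant regions. Of 13 B cell genes, 12 had an unadjusted edgeR p under 0.05 in the direction of KO (8.57% of all tested genes did) and 0 an adjusted one under 0.05, with a median log2 fold change of 2.05. Cd79a and Cd79b, the signaling chains of the B cell receptor, and Pax5, the factor that maintains B cell identity, had log2 fold changes of 2.62, 1.92 and 2.47 (edgeR adjusted p = 0.0663 for each). The summed level of the 13 genes was 84.2 to 187 CPM in KO and 33.9 to 86.5 CPM in WT tumors, with no gene at 0 counts throughout. Of 10 tested plasma cell genes, 5 had an unadjusted p under 0.05 in the direction of KO, with a median log2 fold change of 0.68. Those with the smallest p were Pou2af1, a B cell transcriptional coactivator (2.48, edgeR adjusted p = 0.0766), Tnfrsf13b, the receptor TACI (0.55, edgeR adjusted p = 0.105), and Mzb1, a chaperone of antibody secretion (2.28, edgeR adjusted p = 0.107). In all, 8 of the 10 had a positive log2 fold change, whereas Xbp1 (-0.28) and Eaf2 (-0.37) went the other way. The summed plasma cell list, at 761 to 1030 CPM in KO and 697 to 863 CPM in WT tumors, was made up mainly of Sdc1 and Xbp1, which epithelial cells also express. The part of B and plasma cell numbers in the constant region levels was not tested.

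**Figure D5:**
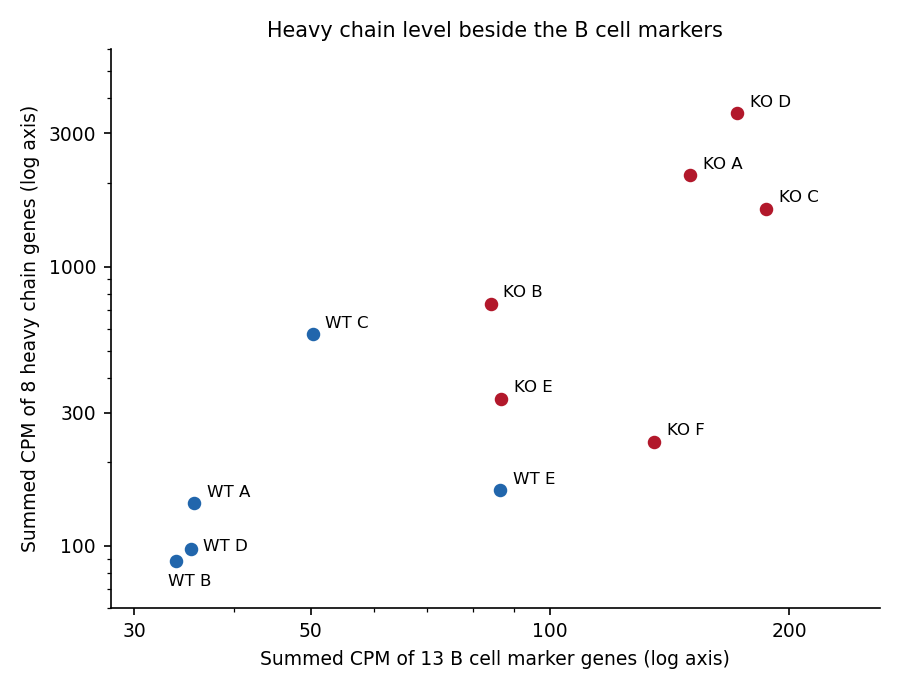
Summed CPM of the 8 heavy chain genes against that of 13 B cell marker genes, both on log axes, for each tumor (red KO, blue WT). WT replicate C and KO replicate B had 573 and 736 CPM of heavy chain beside 50.3 and 84.2 CPM of B cell markers, whereas KO replicate F had 236 CPM beside 135 CPM.

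The ratio of the 2 sums differed widely within each group. Heavy chain CPM per CPM of the B cell list was 14.2, 8.75, 8.62, 20.6, 3.88 and 1.75 in KO replicates A to F and 3.998, 2.60, 11.4, 2.75 and 1.83 in WT replicates A to E. KO replicate F and WT replicate E, the tumors with the largest Ighd shares, had the lowest ratios of their groups.

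Other cell types and pathways around antibodies were examined in the same way, and none of their genes passed the edgeR threshold. The counts that follow are to be read against the 8.57% of all tested genes that had an unadjusted p under 0.05 in the direction of KO and the 15.5% in that of WT. Of 9 tested class switching and germinal center genes, 1 had an unadjusted p under 0.05, Bcl6, the germinal center repressor, with a log2 fold change of 0.56 (edgeR adjusted p = 0.0997), followed by the mismatch repair gene Msh6 (0.37) and the receptor S1pr2 (0.25). Of 7 tested switch and survival signals, 0 did, and the smallest p-values were those of Cd40 (0.45), Tgfb1 (0.20) and Tnfsf13 (0.35). Among 10 immunoglobulin receptors and transporters 2 did. These were the IgM receptor Fcmr, with a log2 fold change of 2.59 (edgeR adjusted p = 0.0847), and the high-affinity IgG receptor Fcgr1, with 0.60 (edgeR adjusted p = 0.186), and Trim21, the cytosolic antibody receptor, followed with 0.57. Pigr, the polymeric immunoglobulin receptor, belongs to this list and is named for its role with the J chain, a choice made after values were seen. It was at 14.0 ± 10.7 CPM (SD, n = 6) in KO and 29.1 ± 16.8 CPM (SD, n = 5) in WT tumors (edgeR adjusted p = 0.403). Of 12 genes of the secretory pathway, 2 had an unadjusted p under 0.05 in the direction of KO and 2 in that of WT. These were Mzb1 and Derl3 (1.46) on one side and Fkbp11 (-0.78) and Sec11c (-0.72) on the other.

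T cell markers showed 0 of 10 genes at an unadjusted p under 0.05, and summed to 87.5 to 525 CPM in KO and 274 to 645 CPM in WT tumors. Their smallest p-values were those of Trbc1 (-0.90), Cd3d (-0.76) and Cd4 (0.52). Among 5 tested genes of lymphoid tissue stroma, 1 reached that level, Cxcl13, the chemokine that draws B cells into follicles, with a log2 fold change of 2.00 (edgeR adjusted p = 0.0847), ahead of Glycam1 (1.22) and Ccl21a (-1.68), and the list summed to 14.8 to 107 CPM in KO and 32.0 to 127 CPM in WT tumors. Mast cells and basophils bind IgE, and of 6 of their genes 2 reached that level in the direction of KO, Cpa3 (1.34) and Tpsb2 (1.17), ahead of Ms4a2 (0.91). Mcpt8 went the other way (-0.94), and the list summed to 14.7 to 73.8 CPM in KO and 16.1 to 131 CPM in WT tumors. Of 5 carcinoma epithelium genes, 3 reached that level in the direction of WT, Krt19 (-0.92), Epcam (-1.62) and Krt18 (-0.54), and that list summed to 2443 to 4867 CPM in KO and 3061 to 7917 CPM in WT tumors. Of 5 fibroblast genes 0 did, with the smallest p for Pdgfra (0.60), Pdgfrb (0.39) and Col1a1 (0.41), and sums of 2640.4 to 5698 CPM in KO and 1455 to 6026 CPM in WT tumors. Of 2 tested acinar genes, Cela1 reached it in the direction of WT (-1.96) and Ctrb1 did not (-1.55), and the list of 5 summed to 7.11 to 13.1 CPM in 5 KO tumors and 12.7 to 162 CPM in 4 WT tumors, but to 516 CPM in KO replicate E and 1336 CPM in WT replicate E. The part of any of these tissues in the antibody genes was not tested.

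Genes that varied most like a member were sought among 14819 genes that are not immunoglobulin segments, by Pearson's r of deviations from the group means of log2(CPM + 1) over the 11 tumors. This is a description of the same libraries, and no test was made. For Ighd they were Fcmr (r = 0.97), Cmah (0.96) and Ms4a1 (0.96), of which Ms4a1 encodes the B cell antigen CD20. For Igkc they were Mzb1 (r = 0.94), Jchain (0.94) and Prg2 (0.89), the last encoding an eosinophil granule protein. Ighm varied most like E130309D02Rik (r = 0.92), Stmn2 (0.88) and Chil3 (0.87). The nearest to Igha were 4930466K18Rik (r = 0.95), Hira (0.93) and Nemf (0.91), and to Jchain Gpr108 (r = 0.87), Rsph10b (0.86) and Slc27a4 (0.85).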

How the data were processed

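Libraries of 11 tumors were made with a directional kit. Per the labels and the study's methods, the authors trimmed reads with Trimmomatic, aligned them to GRCm38 (mm10) with HISAT2 2.1.0 in strand-specific mode and counted uniquely aligned reads over exons per gene with HTSeq 0.11.2; the deposited values are raw counts, and a second deposited table holds the signal of the same counts divided by 1 size factor per tumor (0.514 to 1.42), used only to check them. Unique counting drops reads that fit several immunoglobulin genes. Of 54232 rows, 54165 matched a GENCODE M21 gene, from which symbols, positions and sequences were taken.

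The members and gene lists were chosen with earlier results of these data known. KO and WT were compared with edgeR 4.0.16 (quasi-likelihood test, TMM, filterByExpr, Benjamini-Hochberg over 16536 genes, threshold 0.05), with DESeq2 1.42.0 as an alternative (script tested on simulated data). Shares and ratios of raw counts were compared by exact two-sided permutation of group means over all 462 splits (scipy 1.17.1), with a smallest possible p of 0.00433. All 10 members are named, with, from each list, the 3 tested genes of smallest unadjusted p where none passed. The other alternatives were RLE factors, no filter, at least 10 counts in every tumor, a replicate block, ribosomal RNA share as a covariate, library sizes without immunoglobulin counts, shares per length or on a log scale, Igkc as J chain denominator, and leaving out each tumor. Leaving out WT replicates A, B and C together and the shortest transcript length were added after the data were seen. No 2 tumors of the same group agreed within sampling noise (chi-square per degree of freedom at least 35.6).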

Additional observations from a re-analysis of the deposited data

Results flagged for a closer look

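In 4 of 40 groups of tumors examined for these genes, shares and ratios, 1 tumor stood further from the others than Dixon's criterion allows at the 95% level, where chance gives about 2. On the log2(CPM + 1) scale, Ighe in KO replicate D was at 2.72, against 0.05 to 0.51 in the other KO tumors, and its share of heavy chain counts there was 0.157%, against 0.00477% to 0.0603%. Ighe in WT replicate E was at 0.20 on the same scale, against 0 to 0.06 in the other WT tumors, and stood for 5 counts. The kappa share of KO replicate F was 91.9%, against 96.2% to 98.3% in the other KO tumors.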

How the results depend on the processing

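Genes past the edgeR threshold, 3 higher and 0 lower in KO with 0 of the 9 members, numbered 566 and 997 with 6 members by DESeq2, 39 and 6 with 1 member without a filter, and 0 higher with at least 10 counts in every tumor (3514 at an unadjusted p under 0.05). A covariate for ribosomal RNA left 1 lower gene, and leaving out WT replicates A, B and C 3 lower. Leaving out 1 tumor at a time gave 0 to 608 higher and 0 to 1248 lower genes, with 0 to 5 members. Why was not tested. All 169 alternative values of the members' fold changes kept a positive sign, 154 of them on the same side of the threshold and 15 now past it.

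With the letter as a replicate block there were 8 higher and 1 lower genes and 0 members, and Igha was at a log2 fold change of 3.02 (edgeR adjusted p = 0.285). No pairing by letter showed in the profiles (correlations of deviations of 0.12, 0.07, -0.14, 0.10 and 0.03 for A to E, and only letter A correlated best with its own). Such correlations cannot show that a letter marks no shared litter or day, and what the letters mark is not stated.

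The sign of the difference in share reversed for Ighm per shortest transcript length (-0.362 percentage points), for Ighd (-0.740) and Ighe (-0.0168) without WT replicates A, B and C, and for Igha on the log2 scale (0.0197). Without WT replicates A, B and C the kappa difference was 5.27 points and that of the log2 J chain ratio -0.17 (exact permutation p = 0.714). Leaving out 1 tumor gave differences of -7.60 to 9.41 points for Ighm, -0.0438 to 2.186 for Ighd, -2.21 to 0.0397 for Ighg2b, 4.26 to 10.2 for Ighg3, -19.6 to 1.63 for Igha and 4.73 to 8.99 for kappa, and of -1.20 to -0.70 for the log2 J chain ratio. None of the signs that reversed had passed the threshold. WT replicate B, with 1056 heavy chain counts, limits the precision of the heavy chain shares most, and WT replicate D, with 918 light chain counts, that of the kappa share.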

Other observations

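The Ighv and Igkv segments with the largest mean share over the KO tumors, picked after their values were seen, were Ighv11-2 and Igkv14-126. Ighv11-2 took 13.5%, 17.6%, 22.9%, 8.87%, 19.9% and 0.134% of the Ighv counts in KO replicates A to F, and Igkv14-126 took 16.8%, 22.5%, 25.4%, 12.9%, 21.1% and 1.23% of the Igkv counts. In WT replicates A to E the shares were 9.71%, 8%, 0%, 0.766% and 0.512% for Ighv11-2 and 8.39%, 15.8%, 0.631%, 2.21% and 4.41% for Igkv14-126, and the 0 rests on 112 Ighv counts. KO replicate F and WT replicates C, D and E had low shares of both segments. Because the segments were picked on the KO tumors, the choice itself favors higher shares there, and the groups were not compared. The number of Ighv segments with at least 1 count was 71 to 96 in KO and 22 to 64 in WT tumors, at the unequal depths given above.

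All immunoglobulin segments together took 0.0450% to 0.719% of the library in KO tumors and 0.0169% to 0.0864% in WT tumors.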
